A study of Mus musculus with 5 samples.

Results

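Arc, the Homer and Shank families, PSD-95 (Dlg4), SAPAP1 (Dlgap1) and synaptopodin (Synpo) were followed in the hippocampus after seizures. The 10 genes were taken by symbol from the 55385 genes counted, and all 10 passed the filter on low counts. The 5 libraries of total RNA came from 3 month old male C57/bl6 mice. The control was an untreated hippocampus, so injection itself has no control. The other libraries were made 1, 4 or 8 h after the onset of seizures evoked by 20 mg/kg kainic acid, a glutamate receptor agonist given intraperitoneally. The control, 1 h and 8 h conditions had 1 library each and the 4 h condition had 2, called library 1 and library 2. The sources used here do not say whether a library came from a single mouse. The control library held 19100374 gene counts, the 1 h library 17744508, libraries 1 and 2 at 4 h 18250114 and 19109204, and the 8 h library 16612225.

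The postsynaptic density is a sheet of proteins beneath the membrane of excitatory synapses. PSD-95 holds glutamate receptors, SAPAP proteins link it to Shank proteins, and Homer proteins join Shank to metabotropic glutamate receptors and to calcium stores. Arc acts in the removal of AMPA receptors from the synapse, and Arc and the short Homer1a form of Homer1 are known as immediate early genes of neurons. Synaptopodin is an actin-binding protein of the spine apparatus. The counts join all splice forms of a gene, so Homer1a and the long Homer1 forms are not separated here.

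Arc and Homer1 were far above the control at 1 h and 4 h and near it at 8 h, Synpo was above it in both 4 h libraries, and the other 7 genes lay within 2-fold of it in every library. This split was made after the values were seen. In bulk tissue, more cells of a type and more RNA per cell cannot be told apart. Levels are given as CPM, counts scaled to a common library total, after TMM normalization, which scales libraries so that most genes have the same level. Intervals are exact 95% Poisson intervals for levels and exact binomial intervals for ratios, and cover counting error only. No condition other than 4 h has a replicate, and values of the 4 h libraries are given for library 1 and then library 2.

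Arc (chr15:74669083-74672570, minus strand, ENSMUSG00000022602.14) had 2936 counts in the control, 35538 at 1 h, 43661 and 17548 in the 4 h libraries, and 2658 at 8 h. This was 148 normalized CPM in the control, 2022 at 1 h, 2593 and 928 in the 4 h libraries, and 152 at 8 h. The 8 h library was back at the level of the control, with a ratio of 1.03 (0.975 to 1.08), while the lower of the 4 h libraries was still 6.29 times the control (6.05 to 6.54). The ratio was 13.7 at 1 h (13.2 to 14.2) and 17.6 in library 1 at 4 h (16.9 to 18.3). The log2 fold change was 3.78 ± 0.73 (SE) at 1 h, 3.58 ± 0.69 at 4 h and 0.04 ± 0.65 at 8 h. With the quasi-likelihood test of edgeR (Benjamini-Hochberg adjustment) the adjusted p was 1.0 at 1 h and 0.259 at 4 h, so neither passed the threshold of 0.05.

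Homer1 (chr13:93299635-93405129, plus strand, ENSMUSG00000007617.18) had 4322 counts in the control, 23438 at 1 h, 63378 and 25524 in the 4 h libraries, and 5379 at 8 h. These were 217 normalized CPM in the control, 1333 at 1 h, 3764 and 1350 in the 4 h libraries, and 307 at 8 h. At 8 h Homer1 was still above the control by more than counting error, with a ratio of 1.41 (1.36 to 1.47). The ratio was 6.14 at 1 h (5.94 to 6.34), and 17.3 and 6.22 in the libraries at 4 h. Its log2 fold changes at 1, 4 and 8 h were 2.62 ± 0.69, 3.56 ± 0.68 and 0.50 ± 0.65 (SE), and the quasi-likelihood test of edgeR (Benjamini-Hochberg adjustment) gave an adjusted p of 1.0, 0.259 and 1.0.

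The libraries at 4 h differed in these genes. Library 1 held 2.79 times the Arc level of library 2 (2.75 to 2.84) and 2.79 times its Homer1 level (2.75 to 2.83). Over the 19702 tested genes with counts in both, the log2 ratio of the libraries had a median of 0.01 and an SD of 0.72, and 11.8% of the genes differed at least 2-fold. The mean at 4 h was 1761 ± 1177 normalized CPM for Arc and 2557 ± 1707 for Homer1 (SD, n = 2). For Arc the 1 h value lay between the libraries at 4 h, so an order of 1 h and 4 h could not be told from these data.

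Synpo (ENSMUSG00000043079.17) showed a smaller difference with little spread. It had 1961 counts in the control, 2596 at 1 h, 5388 and 5556 in the 4 h libraries, and 2052 at 8 h, which came to 98.5, 148, 320, 294 and 117 normalized CPM. Both 4 h libraries were above all others, at 3.25 (3.08 to 3.42) and 2.98 (2.83 to 3.14) times the control. The mean at 4 h was 307 ± 18.5 normalized CPM (SD, n = 2), and the 1 h and 8 h libraries were at 1.5 and 1.19 times the control. Its log2 fold change was 1.64 ± 0.18 at 4 h. Synpo ranked 12 by p among the 19768 genes at 4 h, with an unadjusted p of 0.000154 and an adjusted p of 0.242 in the quasi-likelihood test of edgeR (Benjamini-Hochberg adjustment).

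**Figure D1:**
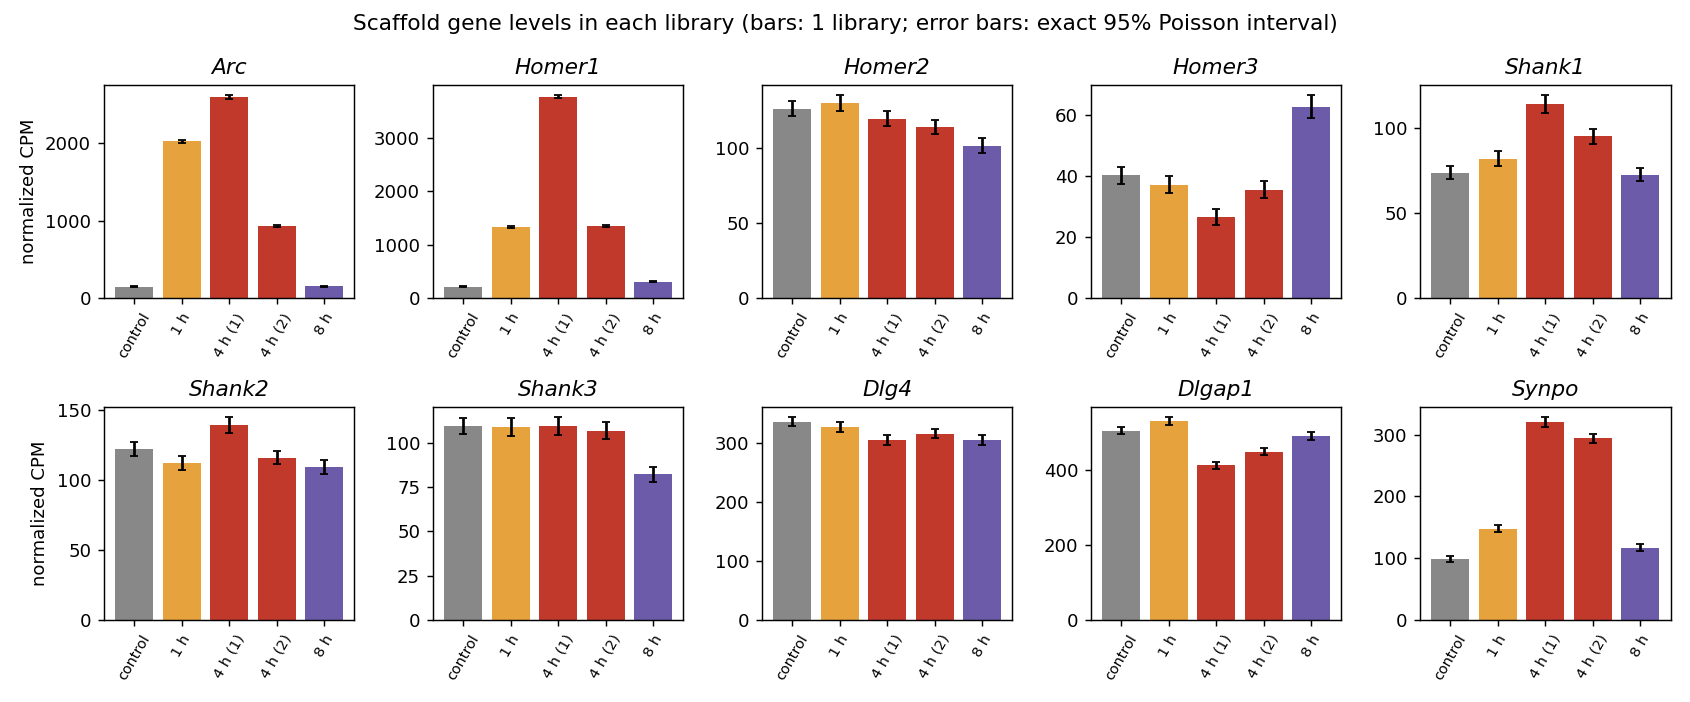
Normalized CPM of the 10 genes (y axis, own scale for each gene) in the 5 libraries (x axis); bars are single libraries and error bars are exact 95% Poisson intervals. Arc, Homer1 and Synpo stand above the control at 4 h, with 928 normalized CPM of Arc in the lower of the 4 h libraries against 148 in the control.

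Homer2 and Homer3 are encoded by genes separate from Homer1. Homer2 had 126 normalized CPM in the control, 130 at 1 h, 119 and 114 in the 4 h libraries, and 101 at 8 h. Homer3 had 40.1 in the control, 37.0 at 1 h, 26.4 and 35.5 in the 4 h libraries, and 62.6 at 8 h. Homer3 was thus lowest at 4 h and highest at 8 h, with ratios to the control of 0.658 and 0.884 in the 4 h libraries and 1.56 at 8 h (1.42 to 1.71). Between 8 h and 4 h its log2 difference was 1.01 ± 0.24, with an adjusted p of 0.466 in the quasi-likelihood test of edgeR (Benjamini-Hochberg adjustment); of 9 other settings 1, with no filter on low counts, called it. Of the exon length of Homer3, 25.4% overlaps Ddx49 on the opposite strand; the sources used here do not give the strand setting of the counting, so reads in the overlap may have been set aside as reads in more than 1 gene. Ddx49 had 576 counts in the control, 472 at 1 h, 461 and 522 in the 4 h libraries and 394 at 8 h. Homer3 had 799, 651, 445, 671 and 1097 counts in the same order. These counts are not scaled, and the part of the overlap in the Homer3 levels was not tested.

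Per kb of annotated exon, Homer1 made up 45.6% of the Homer family in the control, 84.1% at 1 h, 94.8% and 85.4% in the 4 h libraries and 49.4% at 8 h. The level of the family went from 39.8 normalized CPM per kb in the control to 132 at 1 h, 331 and 132 in the 4 h libraries and 51.8 at 8 h. Homer2 and Homer3 together had 21.65 in the control, 21.03 at 1 h, 17.1 and 19.3 in the 4 h libraries and 26.2 at 8 h.

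Shank proteins are the large scaffolds deep in the postsynaptic density. Shank1 had 74.0 normalized CPM in the control, 82.3 at 1 h, 114 and 95.5 in the 4 h libraries, and 72.8 at 8 h. Both 4 h libraries lay above the other 3, at 1.55 (1.45 to 1.66) and 1.29 (1.2 to 1.38) times the control. The log2 fold change of Shank1 at 4 h was 0.50 ± 0.19, with an unadjusted p of 0.0447 and an adjusted p of 0.421 in the quasi-likelihood test of edgeR (Benjamini-Hochberg adjustment). Shank3 had 110 normalized CPM in the control, 109 at 1 h, 110 and 107 in the 4 h libraries, and 82.1 at 8 h, and its 8 h library was at 0.75 times the control by counts (0.701 to 0.802), with an adjusted p of 1.0 in the quasi-likelihood test of edgeR (Benjamini-Hochberg adjustment). Shank2 had 122, 112, 139, 116 and 109 normalized CPM in the same order, and its 4 h libraries fell on either side of the control. Per kb, the sum of the Shank genes was 30.3 in the control, 30.1 at 1 h, 35.7 and 31.5 in the 4 h libraries and 26.0 at 8 h.

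**Figure D2:**
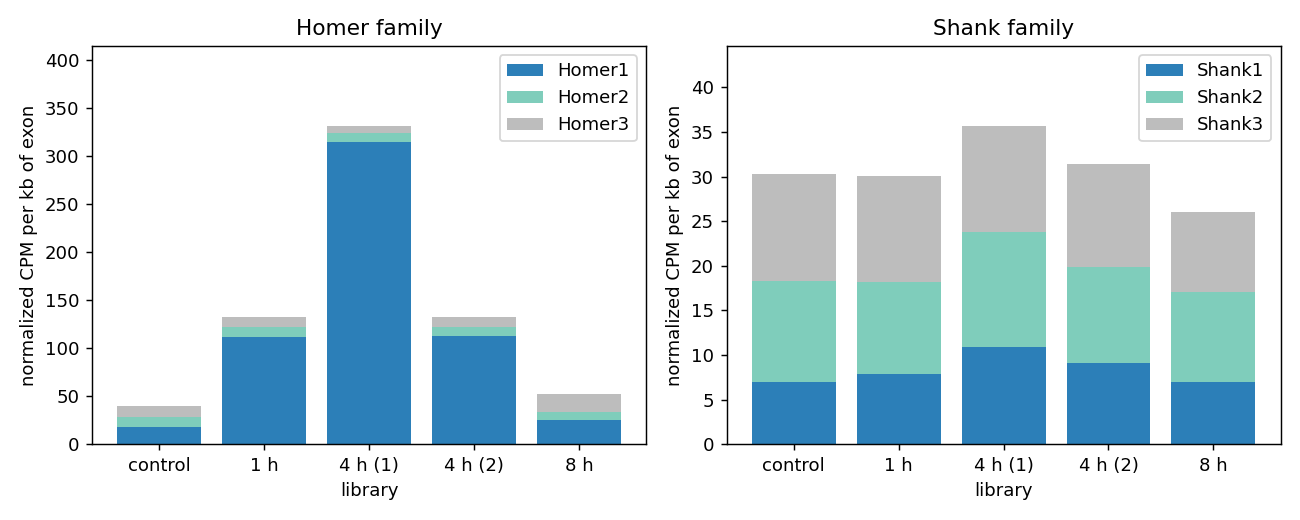
Normalized CPM per kb of annotated exon (y axis) stacked for the Homer genes (left) and the Shank genes (right) in the 5 libraries (x axis). The Homer stack reaches 331 in library 1 at 4 h against 39.8 in the control, and the Shank stack stays between 26.0 and 35.7.

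Dlg4 encodes PSD-95 and Dlgap1 its partner SAPAP1. Dlg4 had 335 normalized CPM in the control, 327 at 1 h, 305 and 315 in the 4 h libraries, and 304 at 8 h, a ratio between 0.907 and 0.975. Dlgap1 had 505 in the control, 530 at 1 h, 411 and 448 in the 4 h libraries, and 490 at 8 h. Dlgap1 was lowest in both 4 h libraries, at 0.816 (0.791 to 0.841) and 0.889 (0.863 to 0.915) times the control, and its log2 fold change of -0.23 ± 0.16 at 4 h had an adjusted p of 0.615 in the quasi-likelihood test of edgeR (Benjamini-Hochberg adjustment).

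**Figure D3:**
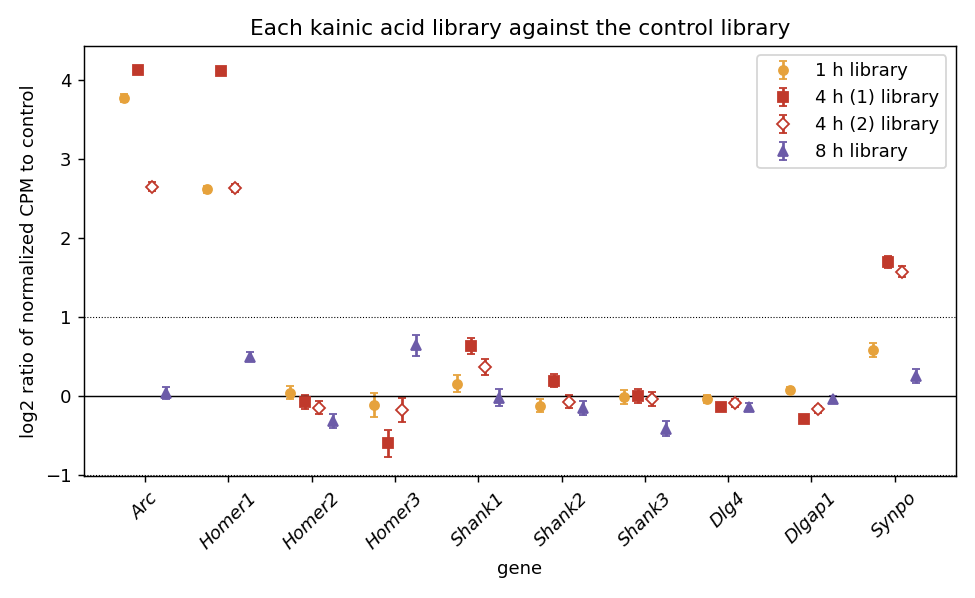
Log2 ratio of normalized CPM to the control (y axis) of each gene (x axis) in the 4 kainic acid libraries; error bars are exact 95% binomial intervals and dotted lines mark 2-fold. Arc and Homer1 lie between 2.62 and 4.14 at 1 h and 4 h, and Synpo at 1.70 and 1.58 at 4 h.

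Per kb of exon, Arc had the highest level of the 10 genes in every library. In the control it had 48.3 normalized CPM per kb, before Dlgap1 at 28.2, Dlg4 at 25.3 and Homer1 at 18.1, and Shank1 was lowest at 7.03. Homer1 stood next after Arc at 1 h and in both 4 h libraries. Synpo, at 10.3 in the control, was behind only Arc and Homer1 in both 4 h libraries, at 33.6 and 30.8. Lengths are of all annotated exons joined, which for Homer1 include ends used by different forms.

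No scaffold gene passed the quasi-likelihood test of edgeR (Benjamini-Hochberg adjustment) at any time point, against 0% of all 19768 genes at 1 h, 0.00506% at 4 h and 0% at 8 h. At an unadjusted p under 0.05 the test held 3 of the 10 genes at 1 h, 4 at 4 h and 0 at 8 h, where all genes gave 478 (2.42%), 2291 (11.6%) and 892 (4.51%). DESeq2 called 0, 1 and 0 of the 10 (56, 238 and 33 of all genes) and limma-voom 0, 0 and 0 (0, 0 and 0 of all genes). The gene DESeq2 called at 4 h was Synpo. Spread was estimated from 1 residual degree of freedom, given by the 4 h pair, and the single libraries are assumed to vary like that pair. Between time points edgeR called none of the 10 for 4 h against 1 h (0.00506% of all genes) or 8 h against 4 h (0% of all genes), with 1 and 5 of them at an unadjusted p under 0.05 (7.94% and 8.73% of all genes); DESeq2 called 1 and 1 (109 and 129 of all genes), and limma-voom 0 and 0. The gene called at 4 h against the control and against 1 h was ETV3L, an ETS factor outside the lists and named after its values were seen, with 1, 2, 963, 982 and 365 counts in the 5 libraries.

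By size alone, 2 of the 10 genes were at least 2-fold above the control at 1 h (Arc and Homer1), 3 at 4 h in both libraries (with Synpo) and 0 at 8 h. Over all genes the share was 5.41%, 4.96% and 6.79%. None of the 10 was at or under 0.5 times the control, against 3.8%, 1.51% and 3.37% of all genes. The median log2 fold change of the 10 genes was 0.06, 0.02 and -0.03, beside -0.01, 0.01 and 0.01 for all genes.

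In the lists of partners no gene met the same 2-fold rule, which at 4 h asks for 2-fold in both libraries. Of 6 other PSD-95 family and SAPAP genes none met it, with medians of 0.06, 0.35 and 0.13 at 1, 4 and 8 h. Dlgap2 lay farthest, with 44.3 normalized CPM in the control, 55.7 at 1 h, 113 and 73.1 in the 4 h libraries and 79.7 at 8 h. Of 6 receptors, channels and other proteins that Homer or Shank proteins bind (medians 0.07, -0.14 and -0.20), 8 Arc partners (-0.01, -0.17 and -0.06) and 12 other postsynaptic density scaffolds (0.10, -0.20 and 0.01), none met it in either direction. Baiap2, an actin regulator that binds Shank proteins, had 236, 374, 419, 341 and 335 normalized CPM, above the control in each kainic acid library. Lzts3, which binds Shank3, had 179, 179, 101, 104 and 127. Of 4 synaptopodin partners none met it (medians -0.01, 0.35 and 0.08), and the actin crosslinker Actn1 had 67.2, 70.7, 122, 101 and 76.6 normalized CPM. In all these lists the quasi-likelihood test of edgeR (Benjamini-Hochberg adjustment), DESeq2 and limma-voom each called 0 genes at 1, 4 and 8 h against the control; in the order given, the lists had 0, 0, 0, 1 and 0 genes at an unadjusted p under 0.05 at 1 h, beside 2.42% of all genes, then 2, 1, 0, 4 and 2 at 4 h, beside 11.6%, and 1, 1, 0, 3 and 0 at 8 h, beside 4.51%.

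A list of 10 activity-induced genes, among them the transcription factors Egr1, Fos, Npas4 and Nr4a1 was chosen for known induction by activity and with earlier results of these data known, so its counts are a description, and its difference from the partner lists was not tested. All 10 were at least 2-fold above the control at 1 h, 7 at 4 h in both libraries and 4 at 8 h (5.41%, 4.96% and 6.79% of all genes), with medians of 3.20, 2.89 and 0.61, and none passed the quasi-likelihood test of edgeR (Benjamini-Hochberg adjustment). At an unadjusted p under 0.05 it held 9, 7 and 2 of them, beside 2.42%, 11.6% and 4.51% of all genes; DESeq2 called 4, 5 and 2 of them (56, 238 and 33 of all genes), and limma-voom 0, 0 and 0. The neurotrophin Bdnf had 43.6, 208, 754, 316 and 96.7 normalized CPM, and Fos had 10.8, 999, 519, 70.4 and 17.2. All 10 were higher in library 1 than in library 2 at 4 h, by unequal amounts: Pcdh8 had 438 and 316 normalized CPM there, Plk2 1502 and 919, and Npas4 130 and 4.92.

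Among 12303 genes with at least 50 counts in every library, the genes whose log2 ratios over the 4 kainic acid libraries were nearest to Arc by root-mean-square difference were Homer1 (0.623), Ifrd1 (0.649), Nfil3 (0.678), Gadd45g (0.722) and Kdm6b (0.756). Nearest to Homer1 were Bdnf (0.388), Sertad1 (0.389), Gpr3 (0.451), Ifrd1 (0.471) and Nfil3 (0.506). Bdnf had 4.78 times its control level at 1 h, 17.3 and 7.25 in the 4 h libraries and 2.22 at 8 h.

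Units annotated inside an intron of Homer1, on its strand, were also followed. They were chosen after their values were seen, and the difference of their time course from that of Homer1 was not tested. Gm47075 (chr13:93312041-93314055) and Gm47088 (chr13:93317427-93319065) lie in an intron of 33395 bases (chr13:93308361-93341755). Gm47075 had 25 counts in the control, 2167 at 1 h, 138 and 46 in the 4 h libraries, and 42 at 8 h. Gm47088 had 24 counts in the control, 1399 at 1 h, 88 and 22 in the 4 h libraries, and 22 at 8 h. Both were highest at 1 h, when Homer1 itself, at 1333 normalized CPM, was below library 1 at 4 h (3764) and near library 2 (1350). The ratio to the control at 1 h was 98.2 (66.3 to 152) for Gm47075 and 66.0 (44.2 to 103) for Gm47088. Their log2 fold changes at 1 h of 6.50 ± 0.93 and 5.92 ± 1.04 had adjusted p of 0.685 and 1.0 in the quasi-likelihood test of edgeR (Benjamini-Hochberg adjustment). Of 9 other settings 5 called Gm47075 and 4 called Gm47088 at 1 h. For 4 h against 1 h their log2 differences were -4.52 ± 0.62 and -4.61 ± 0.72. The quasi-likelihood test of edgeR (Benjamini-Hochberg adjustment) gave both an adjusted p of 0.390. In that comparison too, 5 of the 9 other settings called Gm47075 and 4 called Gm47088.

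**Figure D4:**
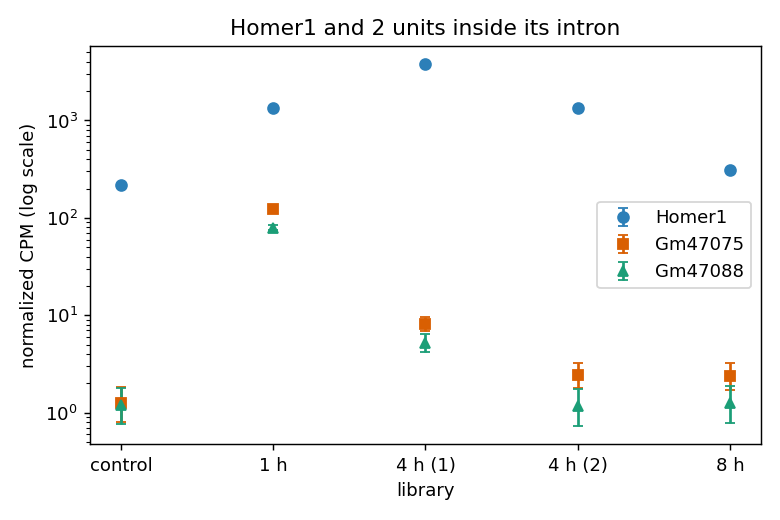
Normalized CPM (y axis, log scale) of Homer1 and of Gm47075 and Gm47088 in the 5 libraries (x axis); error bars are exact 95% Poisson intervals. Gm47075 and Gm47088 reach 123 and 79.6 at 1 h, and at most 8.2 and 5.23 at 4 h.

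RefSeq promoters (GRCm38.p6) matched 6 of the 10 genes; Arc, Shank1, Shank2 and Synpo had no entry. The 250 bases upstream of the 2 matched Homer1 entries and of a Homer2 entry are shown. Homer1 was at least 2-fold above the control at 1 h and 4 h and Homer2 was not, a difference that was not tested. Capitals mark the CRE half-site (TGACG or its complement CGTCA) and the AP-1 motif (TGANTCA).
Homer1 upstream entry, chr13:93303507-93303756, plus strand: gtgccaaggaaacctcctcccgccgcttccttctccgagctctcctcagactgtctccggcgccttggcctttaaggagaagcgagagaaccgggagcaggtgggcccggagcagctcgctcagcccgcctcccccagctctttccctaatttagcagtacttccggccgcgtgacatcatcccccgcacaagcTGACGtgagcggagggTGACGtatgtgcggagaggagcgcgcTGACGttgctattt
Homer1 downstream entry, chr13:93307784-93308033, plus strand: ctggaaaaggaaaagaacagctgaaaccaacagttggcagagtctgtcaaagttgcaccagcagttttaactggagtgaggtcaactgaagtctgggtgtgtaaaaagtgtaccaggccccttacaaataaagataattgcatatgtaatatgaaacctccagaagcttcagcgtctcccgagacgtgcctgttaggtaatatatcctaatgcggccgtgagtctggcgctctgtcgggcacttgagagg
Homer2, chr7:81692966-81693215, minus strand: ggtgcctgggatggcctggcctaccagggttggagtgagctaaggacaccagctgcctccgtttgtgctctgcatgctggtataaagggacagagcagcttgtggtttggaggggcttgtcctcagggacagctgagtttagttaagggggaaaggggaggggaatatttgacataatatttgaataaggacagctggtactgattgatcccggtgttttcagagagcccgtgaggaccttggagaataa
None of these windows overlaps an annotated exon. No window lies at the annotated 5' end of Homer1 (chr13:93299635), which is upstream of both entries. The upstream Homer1 window holds 3 half-sites, beginning 56, 40 and 14 bases before the start of that entry, and the other 2 windows shown hold 0. Of the other 8 windows of the 10 genes, 1 of Dlg4 holds a half-site, 76 bases before its start, in a window that overlaps 62 bases of Dlg4 exon; Dlg4 lay between 0.907 and 0.975 times the control. At least 1 half-site occurs in 17.7% of 32817 promoter windows of 250 bases and 3 or more in 0.689%. The cut-off of 3 was taken from the upstream Homer1 window itself, so the second share is a description only. The full CRE (TGACGTCA, which contains half-sites), AP-1, CArG box and MEF2 motifs, searched on both strands, were in 1.55%, 6.75%, 1.47% and 2.92% of all windows and in none of these 3. A match is a description of letters, and nothing was measured at these windows.

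The libraries also differed in their makeup. Summed neuron markers (4 of 4 detected, most abundant Snap25) were 3510 normalized CPM in the control, 3648 at 1 h, 3456 and 3202 in the 4 h libraries and 3052 at 8 h. Choroid plexus markers (4 of 4, most abundant Ttr) were 3932, 1662, 26.4, 4176 and 3032, and thalamus markers (3 of 3, most abundant Rora) were 106, 119, 426, 176 and 81.6. Library 1 at 4 h, which had the highest Arc and Homer1 levels, thus had the lowest choroid plexus and the highest thalamus sums. Dentate granule cell markers (2 of 2, most abundant Prox1) were 89.3, 95.1, 183, 131 and 135, though C1ql2, the other marker, was 29.3, 27.9, 11.0, 11.7 and 58.1. Interneuron sums (most abundant Gad1) were 463, 522, 794, 638 and 470, astrocyte sums (Slc1a3) 922, 1014, 1520, 1355 and 1356, of which Gfap was 221, 272, 596, 510 and 587, and oligodendrocyte sums (Mbp) 2581, 3156, 2980, 3807 and 2377. Microglia sums (Csf1r) were 151, 154, 124, 126 and 134, endothelial sums (Flt1) 67.3, 67.5, 107, 63.6 and 80.7, and striatum sums (Rgs9) 12.1, 15.3, 19.1, 18.9 and 16.0. The part of tissue makeup in the Arc and Homer1 levels was not tested.

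**Figure D5:**
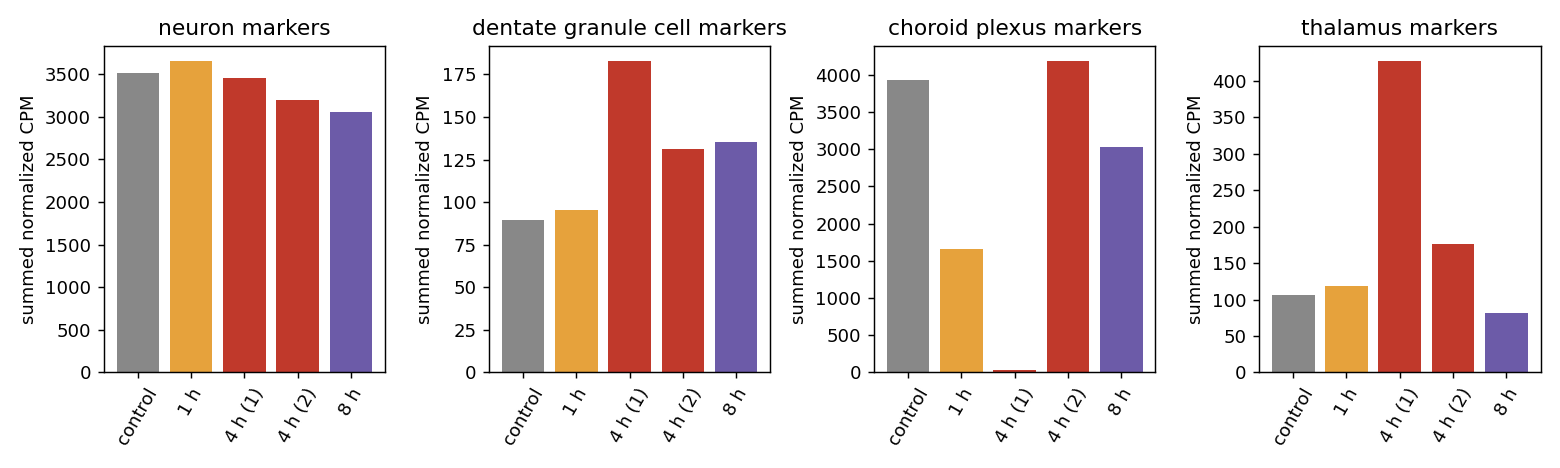
Summed normalized CPM (y axis) of marker genes of neurons, dentate granule cells, choroid plexus and thalamus in the 5 libraries (x axis, single libraries). The choroid plexus sum is 26.4 in library 1 at 4 h and 4176 in library 2.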

How the data were processed

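Total RNA of hippocampus was sequenced in 5 libraries (stranded kit, paired-end). Per the labels, the authors aligned reads with STAR 2.5.1b to GRCm38.p4 and deposited HTSeq counts per gene, not normalized; for the HTSeq version, the strand setting and the annotation, the sources used here give nothing. Reads on no gene (24.7% to 33.1% of reads) were left out of library sizes. Of 55385 identifiers, 55144 were found in GENCODE M21, which gave positions and exon lengths. The 4 h libraries differed by far more than sampling noise (chi-square per degree of freedom 30.9) and were counted as 2 samples, though this does not show that they came from separate mice.

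Counts were analysed with edgeR 4.0.16 in R 4.3.3 (filterByExpr, 19768 genes; TMM; quasi-likelihood test over 4 conditions; Benjamini-Hochberg, threshold 0.05). The common dispersion was 0.0565 and the prior degrees of freedom 4.42. Fold changes were shrunk with a prior count of 2. Alternatives were DESeq2 1.42.0, limma-voom (limma 3.58.1), other normalizations, other filters, assumed biological coefficients of variation, a prior count of 0.125 and leaving out each 4 h library. The prior count of 0.125 alters only the fold changes, so its p-values repeat those of the planned test. The p-values of the quasi-likelihood test set each difference against the spread of the 4 h pair, combined with a prior from all genes. The single libraries are assumed to vary like that pair. The rule for naming genes took the 10 genes, genes of the lists, and the 5 genes nearest to Arc and to Homer1; Ddx49, ETV3L, Gm47075 and Gm47088 were named beyond it. The members and lists were chosen with earlier results of these data known.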

Additional observations from a re-analysis of the deposited data

Results flagged for a closer look

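Reads outside annotated exons made up a larger share in each kainic acid library than in the control (24.7%), with 29.0% at 1 h, 33.1% and 25.3% in the 4 h libraries and 30.9% at 8 h. Reads in more than 1 gene made up 1.51% in the control and 1.41%, 1.26%, 1.52% and 1.41% in the kainic acid libraries, in the same order, and reads mapped to several places 11.56% and 10.2%, 9.67%, 11.63% and 10.4%, so that only library 2 at 4 h was above the control, and slightly. Their part in the levels of the scaffold genes was not tested.

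Homer3 and Dlgap1 lay on opposite sides of the control at different times by more than counting error. Homer3 was at 0.923 times the control at 1 h (0.831 to 1.02, within counting error), at 0.658 and 0.884 times the control at 4 h and at 1.56 times at 8 h. Dlgap1 was at 1.05 times the control at 1 h, 0.816 and 0.889 times at 4 h and 0.970 times at 8 h; with library size alone its log2 fold change at 1 h was -0.00139, so its place above the control depends on the scaling. In the comparison of 8 h with 4 h, the quasi-likelihood test of edgeR (Benjamini-Hochberg adjustment) gave Homer3 an adjusted p of 0.466, and for 4 h against 1 h it gave Dlgap1 0.686. For 4 h against 1 h Homer3 had 0.820, and for 8 h against 4 h Dlgap1 had 0.771.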

How the results depend on the processing

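The log2 fold changes of Arc and Homer1 moved little in the fits of all 5 libraries and more without 1 of the 4 h libraries, and the calls depended on the setting. At 1 h Arc was between 3.70 and 3.78 and Homer1 between 2.54 and 2.62 over 9 alternatives, and at 4 h between 3.39 and 3.58 and between 3.37 and 3.56. Without 1 of the 4 h libraries the log2 ratio ranged from 2.65 to 4.14 for Arc and from 2.64 to 4.12 for Homer1. The 2-fold counts of 2, 3 and 0 genes were equal under both other scalings. Without either 4 h library the count at 4 h was also 3; the rule asks for both libraries, so leaving one out could only keep or raise it.

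Calls are given for 1 h, 4 h and 8 h against the control, 4 h against 1 h and 8 h against 4 h. As planned, edgeR called 0, 1, 0, 1 and 0 genes. Library size alone called 57, 237, 22, 67 and 120, DESeq2 56, 238, 33, 109 and 129, no filter on low counts 285, 1300, 279, 725 and 957, a biological coefficient of variation assumed to be 0.2 called 238, 916, 184, 513 and 660, and one of 0.4 called 40, 81, 12, 33 and 48. Median-of-ratios size factors and limma-voom called 0 in each, and at least 10 counts in every library called 1, 0, 0, 0 and 0.

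Of the 10 scaffold genes, 0 were called as planned. Library size alone called 1, 3, 0, 0 and 3, DESeq2 0, 1, 0, 1 and 1, no filter 2, 3, 0, 2 and 4, assuming 0.2 gave 2, 3, 0, 0 and 3, and assuming 0.4 gave 1, 2, 0, 0 and 1. Arc passed at 1 h and 4 h with library size alone (3.70 and 3.43), no filter (3.77 and 3.56) and assumed coefficients of 0.2 and 0.4 (3.78 and 3.58 with both). Homer1 passed at 1 h with no filter (2.61) and a coefficient of 0.2 (2.62), and at 4 h with library size alone (3.41), no filter (3.54) and coefficients of 0.2 and 0.4 (3.56 with both). Synpo passed at 4 h with library size alone (1.51), DESeq2 (1.64), no filter (1.62) and a coefficient of 0.2 (1.64). The adjusted p of Arc at 4 h ran from 7.55e-56 to 0.329.

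The prior degrees of freedom were 4.42 as planned and 11.2 with library size alone, and without a filter they were infinite. The quasi-likelihood dispersion used for Arc was 3.11 as planned, 1.57 with library size alone and 0.329 without a filter, against 15.5, 14.4 and 16.0 from its own 4 h pair. For Synpo it was 0.301, 0.462 and 0.416, against 0.131, 0.00446 and 0.120. The assumed coefficients set aside the spread of the pair. Library size alone moved the median of all genes by -0.12 at 4 h.

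Small log2 fold changes against the control changed sign with other settings in 4 cases: Homer2 (-0.0327) and Dlgap1 (-0.00139) at 1 h and Shank2 (-0.0641) at 4 h with library size alone, and Shank1 at 8 h (0.00266) with at least 10 counts in every library. Shank2 at 4 h was also negative without library 1 (-0.0738), and Shank3 at 4 h was above 0 without library 2 (0.000578). Between 8 h and 4 h Dlg4 ran from -0.0293 to 0.114. No paired analysis was possible because the labels number only the 4 h libraries.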
